A study of Mus musculus with 4 samples.

Results

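Aminoacyl-tRNA synthetases are the enzymes that join each amino acid to its transfer RNA. Their genes were taken from the deposited table by symbol, as a one-letter amino acid code followed by ars, ars1 or ars2, plus Eprs, Farsa and Farsb. All 37 genes found this way, of 27179 genes in the table, are described here: 20 for cytosolic enzymes and 17 for mitochondrial enzymes, whose symbols end in 2. RNA was sequenced from mouse acute myeloid leukemia (AML) cells of the bone marrow, from which leukemia stem cells (LSCs) were sorted, the cells held to sustain the disease. The sort gate took cells positive for a yellow fluorescent protein, for the myeloid surface protein Mac-1 and for the receptor c-Kit. The groups were 2 wild-type and 2 B7-H4-null libraries, all of the C57BL/6 strain and all from the same murine AML model. The sources used here give neither the oncogene of the model nor the age of the animals, nor whether cells were pooled, nor whether the leukemia, the host or both lacked B7-H4.

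Cells charge tRNA in the cytosol and again inside mitochondria, which run their own protein synthesis with enzymes encoded in the nucleus. Most amino acids therefore have a pair of nuclear genes, while Gars and Kars are known to serve both compartments and Eprs fuses the glutamate and proline enzymes into a single protein. In the cytosol, Eprs, Iars, Lars, Mars1, Qars, Rars, Kars and Dars join a multisynthetase complex built on scaffold proteins. When amino acids run short or other stresses act, the transcription factor ATF4 is known to switch on many cytosolic synthetase genes through a short element that C/EBP and ATF factors share.

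To show where such letters lie, the promoter windows of RefSeq (GRCm38.p6, 250 bases before to 50 after the start) were searched on both strands for TGATGNAA, the core of that element. Windows were held for 27 of the 37 genes, and the other 10 could not be searched. The letters were found in 5 of 13 cytosolic genes, Aars, Gars, Iars, Tars and Yars, and in 0 of 14 mitochondrial genes, against 4.51% of all 27025 genes with a window. The longer form TGATGNAAT, which contains the core, was found in Aars, Gars and Iars, and in 1.08% of all genes. The stretches below are shown because the levels of these 5 genes are set beside that of Atf4 further on. Capitals mark the match, which appears as its reverse complement where it lies on the other strand, and all run 5′ to 3′ on the strand of the gene.
Aars, chr8:111033714-111033753, plus strand, match at 112 bases before the start: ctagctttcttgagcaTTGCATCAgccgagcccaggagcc
Aars, chr8:111033841-111033868, plus strand, match from base 10 of the transcript: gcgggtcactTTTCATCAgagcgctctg
Gars, chr6:55037955-55037994, plus strand, match at 30 bases before the start: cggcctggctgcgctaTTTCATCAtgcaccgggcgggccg
Iars, chr13:49682127-49682154, plus strand, match from base 8 of the transcript: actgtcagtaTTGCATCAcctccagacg
Tars, chr15:11399659-11399689, minus strand, match at 15 bases before the start: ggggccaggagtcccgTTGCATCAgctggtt
Yars, chr4:129189896-129189923, plus strand, match from base 4 of the transcript: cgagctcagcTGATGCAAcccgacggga
The windows of Aars, Iars and Tars also held, outside the stretches shown, the E-box CACGTG, the letters bound by MYC and its partners, as did Farsb and the mitochondrial Ears2, against 8.09% of all genes. A match describes the letters of the window and not a bound site.

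The libraries rested on totals of 9419425 to 10814448 reads, recovered from the steps between low values, and the synthetase genes drew 19 to 5968 reads per library, with 34 of the 37 at 100 reads or more in every library. Levels are given in RPKM, reads scaled to the length of the gene and to the total of the library, so they can be compared between genes. The targeted gene, Vtcn1, drew 0 reads from either wild-type library and 1 read from each B7-H4-null library, so it could not check the labels at this depth. The sort markers Itgam, Itgb2 and Kit were present in every library, and none of 7 T and NK cell markers reached 1 RPKM. The replicates were not stated to come from separate animals, so p-values reflect the spread among these libraries alone, and it may be technical.

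Every synthetase gene was detected in every library, and all 37 passed the filter for testing (at least 1 RPKM in at least 2 of 4 libraries), as did 12107 genes in all. The cytosolic genes lay higher. Their median level was 38.7 and 37.9 RPKM in wild type replicates 1 and 2 and 34.04 and 44.6 RPKM in B7-H4-null replicates 1 and 2. The mitochondrial genes had medians of 10.6, 8.54, 11.8 and 11.5 RPKM in the same order. The groups of enzymes overlapped all the same, as the mean level of Lars2, 47.5 RPKM, lay above that of Hars, 44.2 RPKM, and Cars and Iars lay below Cars2.

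**Figure D1:**
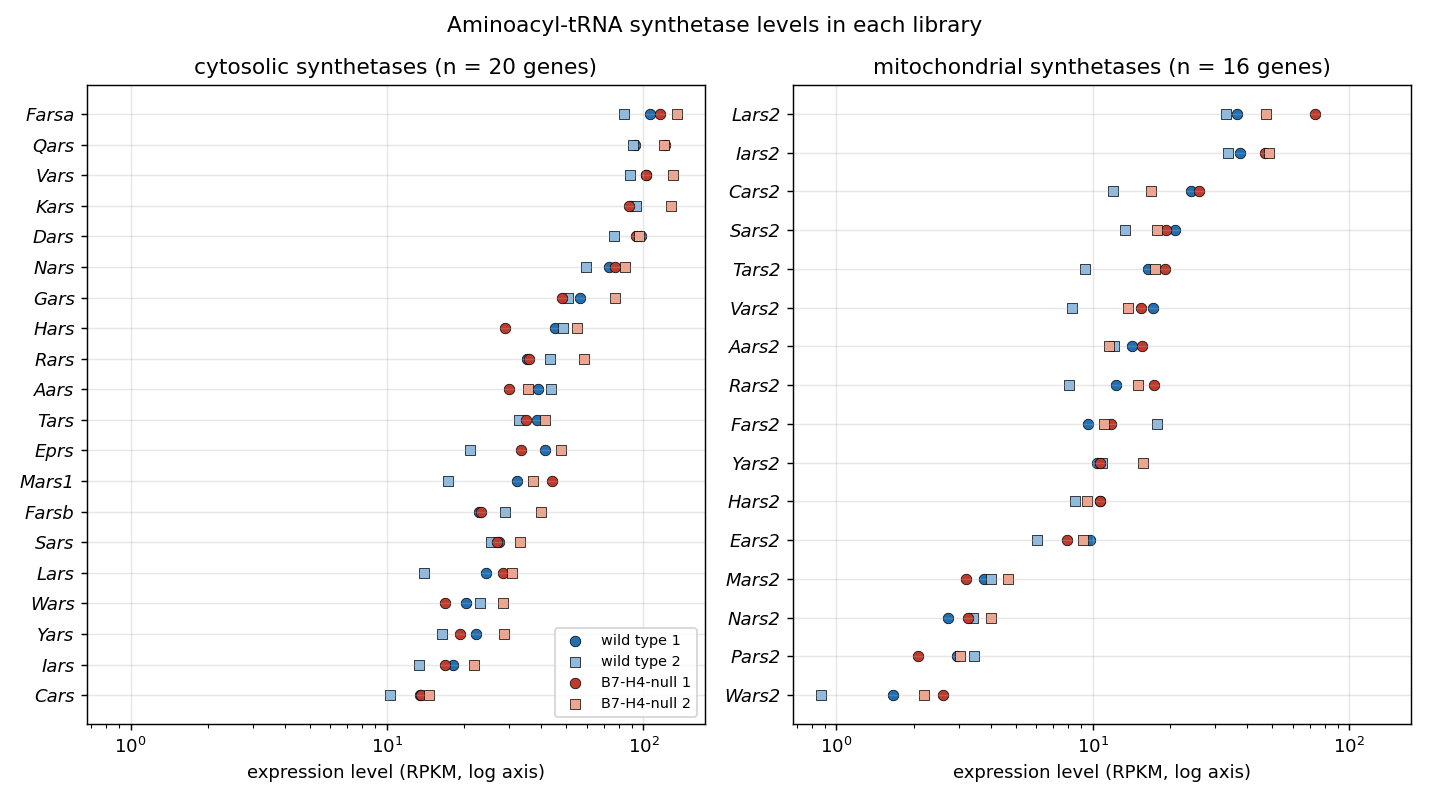
Level of each aminoacyl-tRNA synthetase gene in each library, in RPKM on a log axis, with cytosolic genes on the left and mitochondrial genes on the right, ordered by mean level; each point is 1 library. Farsa leads the cytosolic genes with a mean of 110.3 RPKM and Lars2 the mitochondrial genes with 47.5 RPKM, and the pale blue squares of wild type replicate 2 are the lowest library for 24 of all 37 genes, of which 36 are drawn.

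The most abundant cytosolic transcripts were those for the phenylalanine enzyme's alpha subunit, the glutamine enzyme and the valine enzyme. Farsa (gene ID 66590, chromosome 8, 84856969 to 84869257) stood at 106 and 84.2 RPKM in wild type against 116 and 135 RPKM in the null libraries. Qars (gene ID 97541, chromosome 9, 108508005 to 108515941) stood at 93.0 and 90.9 against 121 and 120 RPKM, and Vars had 103 and 88.4 against 102 and 131 RPKM. The B7-H4-null libraries lay above both wild-type libraries for Farsa and Qars and overlapped them for Vars. The libraries of these 3 genes overlapped in level, and the next, Kars and Dars, followed closely with means over all libraries of 99.6 and 90.8 RPKM.

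Farsb encodes the beta subunit that pairs with Farsa in the cytosolic phenylalanine enzyme. Its level was 22.8 and 28.9 RPKM in wild type against 23.3 and 39.8 RPKM in the null libraries, lower than Farsa in each library although the enzyme is known to hold the subunits in equal number. The lowest cytosolic levels were those of Cars, for cysteine, with a mean of 13.004 RPKM, and of Iars, for isoleucine, with 17.5 RPKM. Cars stood at the 49.3 percentile of all tested genes and Farsa at the 93.6 percentile.

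Among the mitochondrial genes, Lars2 (leucine), Iars2 (isoleucine) and Cars2 (cysteine) were the most abundant. Lars2 (gene ID 102436, chromosome 9, 123366927 to 123462675) stood at 36.5 and 33.1 RPKM in wild type against 73.4 and 47.1 RPKM in the null libraries. Iars2 (gene ID 381314, chromosome 1, 185286642 to 185329419) stood at 37.6 and 33.7 against 46.8 and 48.6 RPKM. The least abundant were Wars2 (tryptophan), Pars2 (proline), Nars2 (asparagine) and Mars2 (methionine), with means of 1.84, 2.87, 3.34 and 3.91 RPKM over all libraries. Wars2 stood at the 9.26 percentile of tested genes and drew only 19 to 54 reads per library.

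No synthetase gene passed the test between the genotypes. By limma, 0 of the 37 had an adjusted p under 0.05, where 0.0991% of all tested genes did, and limma's voom on recovered reads also called 0. At an unadjusted p under 0.05, 1 gene was higher, Lars2, and 0 were lower, against 5.05% and 7.2% of all tested genes. The count higher was 4 after median-ratio scaling, 2 after quantile normalization and 3 with a replicate block. Leaving out wild type replicate 1 gave 5, and leaving out wild type replicate 2 or B7-H4-null replicate 1 gave 0. The smallest adjusted p was 0.383. In bulk RNA such as this, fewer cells of a type and less RNA per cell cannot be told apart.

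Most of the log2 differences were small and above 0. On the scale of log2(RPKM + 1), B7-H4-null minus wild type, they ran from −0.33 for Aars to 0.75 for Mars1, with a median of 0.24 over the 37 genes and of −0.09 over all tested genes. They were above 0 for 32 of 37 synthetase genes (86.5%), against 41.5% of all tested genes. Both B7-H4-null libraries lay above both wild-type libraries for 12 of the 37, where 16% of all tested genes did, and below them for 1, Aars, where 28% did. The remaining 24 overlapped. After median-ratio scaling, which moves the median of all tested genes to 0.01, the median of the synthetase genes was 0.34.

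**Figure D2:**
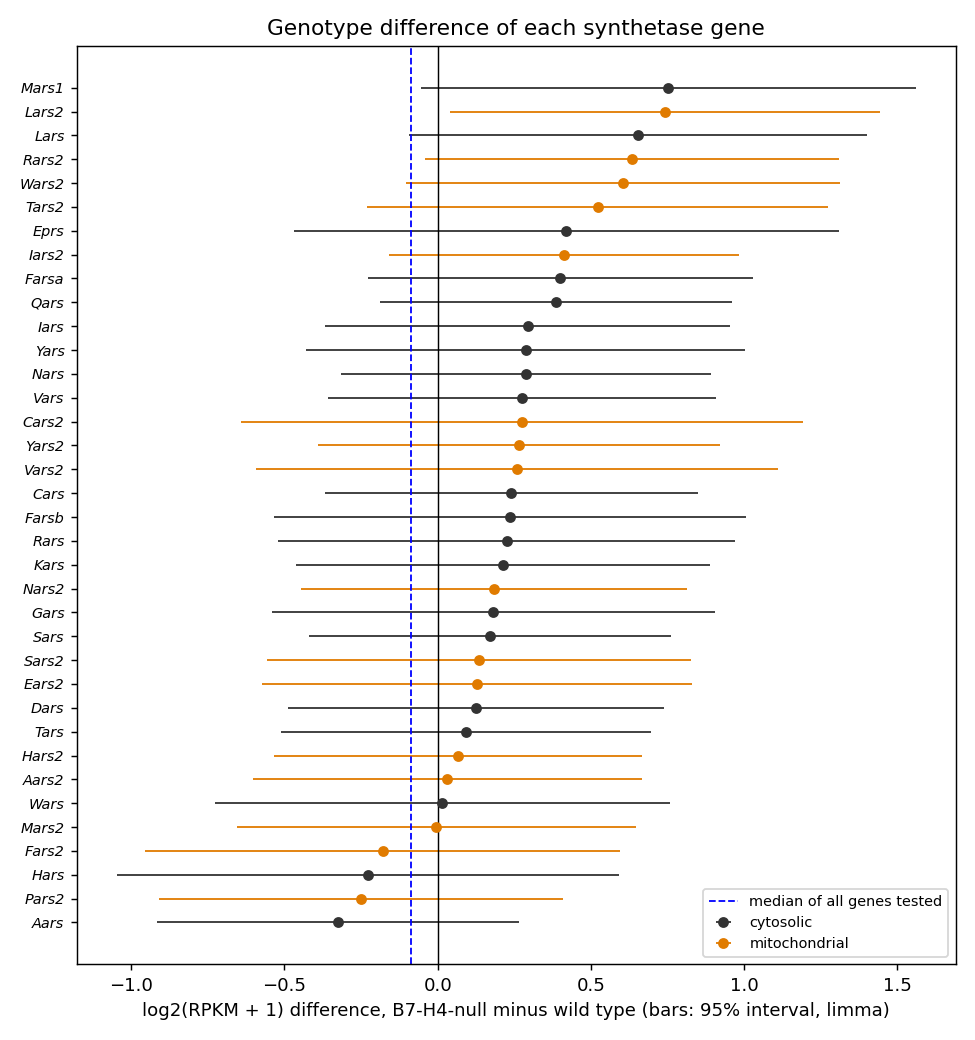
Log2(RPKM + 1) difference of each synthetase gene, B7-H4-null minus wild type, with its 95% interval from limma; cytosolic genes in black, mitochondrial genes in orange, and a dashed blue line at the median of all tested genes, −0.09. Points run from −0.33 for Aars to 0.75 for Mars1, colors are mixed along the order, and among the 36 genes drawn the interval leaves out 0 only for Lars2.

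The size of this lean varied with the library left out. Wild type replicate 2 was the lowest library for 24 of the 37 genes. Without it 25 of 37 differences were above 0 and the median was 0.12, and without wild type replicate 1 the median was 0.40. Leaving out null replicate 1 gave 0.38 and leaving out null replicate 2 gave 0.12. None of these fits called a synthetase gene. The replicates of wild type differed by a median of 0.29 over the synthetase genes and those of B7-H4-null by 0.24, as absolute log2 differences. With the sign kept, replicate 1 minus replicate 2 had a median of 0.24 in wild type and −0.19 in B7-H4-null. The median difference between genotypes, also signed, was 0.24, which is about the same size.

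Cytosolic and mitochondrial enzymes had similar medians. For the 20 cytosolic genes the median log2 difference was 0.24, with 18 above 0, 6 without overlap higher and 1 lower. For the 17 mitochondrial genes it was 0.26, with 14 above 0, 6 without overlap higher and 0 lower. Of all tested genes, 41.5% were above 0, 16% were higher without overlap and 28% lower. The cytosolic median minus the mitochondrial median was −0.02. It was 0.24 when null replicate 1 was left out and −0.17 when null replicate 2 was, so the sign depended on which null library was kept.

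The B7-H4-null libraries differed from each other in this balance. Summed over genes, the cytosolic synthetases had 997 and 882 RPKM in wild type replicates 1 and 2 and 997 and 1243 RPKM in B7-H4-null replicates 1 and 2. The mitochondrial synthetases summed to 238 and 190 RPKM in wild type and to 295 and 256 RPKM in B7-H4-null. The mitochondrial share of the whole was 19.3% and 17.7% in wild type and 22.8% and 17.1% in B7-H4-null, so the null libraries lay on either side of the wild-type libraries. B7-H4-null replicate 2 was the highest library for 16 of the 20 cytosolic genes and 4 of the 17 mitochondrial genes. B7-H4-null replicate 1 was the highest for 2 of the 20 and 8 of the 17.

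Within the cytosol, all 8 enzymes of the multisynthetase complex had differences above 0, with a median of 0.34 and 3 without overlap, Mars1, Lars and Qars. The 12 cytosolic enzymes outside the complex had a median of 0.21, with 10 above 0 and 3 higher and 1 lower without overlap. Of all tested genes, 16% were higher and 28% lower without overlap. Mars1 encodes the methionine enzyme, which charges the tRNA that starts every cytosolic protein as well as the one that extends it. Mars1 (gene ID 216443, chromosome 10, 127296221 to 127311786) stood at 32.2 and 17.3 RPKM in wild type against 44.1 and 37.2 RPKM in the null libraries, 1.64-fold in means. Its log2 difference was 0.75 ± 0.34 (SE), with a 95% interval of −0.06 to 1.56 and an adjusted p = 0.436 by limma. Both null libraries lay above both wild-type libraries, but the wild-type libraries stood farther apart than the nearest libraries of the genotypes did.

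The 3′ end of Mars1 shares 68 exon bases with Ddit3, the stress transcription factor CHOP, which lies on the opposite strand. The libraries did not mark strand, so reads of those bases cannot be told apart. Ddit3 had 37.9 and 9.82 RPKM in wild type against 282 and 30.9 RPKM in the null libraries. The libraries had the same order for both genes in wild type and the same highest library, B7-H4-null replicate 1, and the part of Ddit3 in the Mars1 values was not tested.

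Lars, the leucine enzyme of the complex, which is also known to sense leucine for the mTOR pathway, had 24.2 and 14.0 RPKM in wild type against 28.5 and 30.8 RPKM in the null libraries. Its log2 difference was 0.65 ± 0.31 (SE, adjusted p = 0.467, limma). Qars had a difference of 0.39 ± 0.24 (SE, adjusted p = 0.571) and replicates close to each other, 91.99 ± 1.48 against 121 ± 0.944 RPKM (SD, n = 2). Eprs overlapped widely, with 41.3 and 21.1 RPKM in wild type against 33.4 and 47.7 RPKM in the null libraries. Its difference of 0.42 ± 0.37 (SE) was −0.05 without wild type replicate 2. Iars, Dars, Kars and Rars overlapped too, with differences of 0.29, 0.13, 0.21 and 0.23.

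The scaffold proteins of the complex had differences of 0.10 for Aimp1, 0.37 for Aimp2 and 0.38 for Eef1e1. Aimp1 had 71.3 and 71.1 RPKM in wild type against 69.3 and 84.1 RPKM in the null libraries. Eef1e1 had 29.0 and 29.6 against 26.8 and 55.3 RPKM. All 3 overlapped and were highest in B7-H4-null replicate 2, the library in which 5 of the 8 enzymes of the complex were highest.

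Outside the complex, Farsa had a difference of 0.40 ± 0.26 (SE, adjusted p = 0.589), and Farsb 0.24 ± 0.32. Nars (asparagine) and Cars (cysteine) also lay higher without overlap, with 73.1 and 59.5 against 77.2 and 84.3 RPKM and with 13.5 and 10.3 against 13.6 and 14.6 RPKM. For Cars the nearest libraries of the genotypes differed by less than the wild-type replicates did. Hars (histidine) had the widest null replicates of this group by ratio, 28.7 and 54.8 RPKM, on either side of wild type at 45.0 and 48.4 RPKM. Hars and Hars2 run in opposite directions on chromosome 18 and share 195 exon bases. Wars (tryptophan), known to be induced by interferon, had 20.2 and 23.1 against 16.8 and 28.4 RPKM.

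Aars, the alanine enzyme, was the only synthetase gene with both null libraries below both wild-type libraries. Aars (gene ID 234734, chromosome 8, 111027778 to 111055569) stood at 38.8 and 43.5 RPKM in wild type against 29.9 and 35.4 RPKM in the null libraries. Its log2 difference was −0.33 ± 0.25 (SE), with a 95% interval of −0.92 to 0.27 and an adjusted p = 0.637 by limma. Aars shares 1326 exon bases on the same strand with Exosc6, a subunit of the RNA exosome, which had 20.3 and 17.4 RPKM in wild type against 12.5 and 22.6 RPKM in the null libraries.

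Among the mitochondrial genes, Lars2 had the smallest p. Its levels gave 34.8 ± 2.42 RPKM in wild type and 60.2 ± 18.6 RPKM in the null libraries (SD, n = 2), 1.73-fold in means. The log2 difference was 0.74 ± 0.29 (SE), with a 95% interval of 0.04 to 1.44 (adjusted p = 0.383, limma). The null libraries lay above both wild-type libraries and stood farther from each other than the wild-type libraries from B7-H4-null replicate 2.

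Rars2 (arginine), Wars2 and Tars2 (threonine) also lay higher without overlap. Rars2 had 12.3 and 8.09 RPKM in wild type against 17.2 and 15.01 RPKM in the null libraries, a difference of 0.64 ± 0.28 (SE, adjusted p = 0.432). In each of these 3 genes wild type replicate 2 was the lowest library and B7-H4-null replicate 1 the highest. Wars2 had 1.66 and 0.872 against 2.61 and 2.19 RPKM, which rests on few reads, and Tars2 had 16.5 and 9.27 against 19.0 and 17.5 RPKM. Iars2 was steadier between replicates, at 35.6 ± 2.72 against 47.7 ± 1.23 RPKM (SD, n = 2), with a difference of 0.41 ± 0.24 (SE, adjusted p = 0.55). Iars2 shares 2034 exon bases with Rab3gap2 on the opposite strand, which had 24.6 and 19.0 against 24.0 and 18.4 RPKM.

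Fars2 (phenylalanine), Pars2 and Mars2 were the mitochondrial genes below 0, at −0.18, −0.25 and −0.004. Fars2 had 9.60 and 17.7 RPKM in wild type against 11.8 and 11.1 RPKM in the null libraries, so the null libraries lay between the wild-type libraries. Pars2 had 2.95 and 3.44 against 2.07 and 3.04 RPKM and overlapped. Cars2 and Vars2 (valine) had the widest wild-type replicates of the mitochondrial genes, by ratio. Cars2 had 24.1 and 12.03 against 25.9 and 16.8 RPKM, and Vars2 17.2 and 8.26 against 15.4 and 13.7 RPKM, and for both the difference was below 0 without wild type replicate 2.

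Set side by side by amino acid, the cytosolic gene exceeded its mitochondrial partner in every library in 15 of 18 pairs, with Eprs counted against both Ears2 and Pars2 and Fars2 against both Farsa and Farsb. The median ratio over the pairs was 3.91. The widest was asparagine, where Nars over Nars2 was 26.8 and 17.5 in wild type and 23.8 and 21.2 in B7-H4-null. The order was turned for cysteine, isoleucine and leucine. Cars over Cars2 was 0.559 and 0.857 in wild type and 0.526 and 0.872 in B7-H4-null, Iars over Iars2 was 0.48 and 0.394 against 0.36 and 0.45, and Lars over Lars2 was 0.664 and 0.422 against 0.388 and 0.653. In these 3 pairs the mitochondrial transcript was the more abundant in all 4 libraries.

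The ratio of Eprs over Pars2 was 14.0 and 6.14 in wild type and 16.1 and 15.7 in B7-H4-null, without overlap. Pars2 drew only 60 to 105 reads per library, and each of these genes overlapped on its own. The wild-type ratios stood farther apart than the nearest ratios of the genotypes did. The ratios of 16 of the 18 pairs overlapped, and the mitochondrial gene had the larger log2 difference in 9 of the 18 pairs. No test was made on these ratios.

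**Figure D3:**
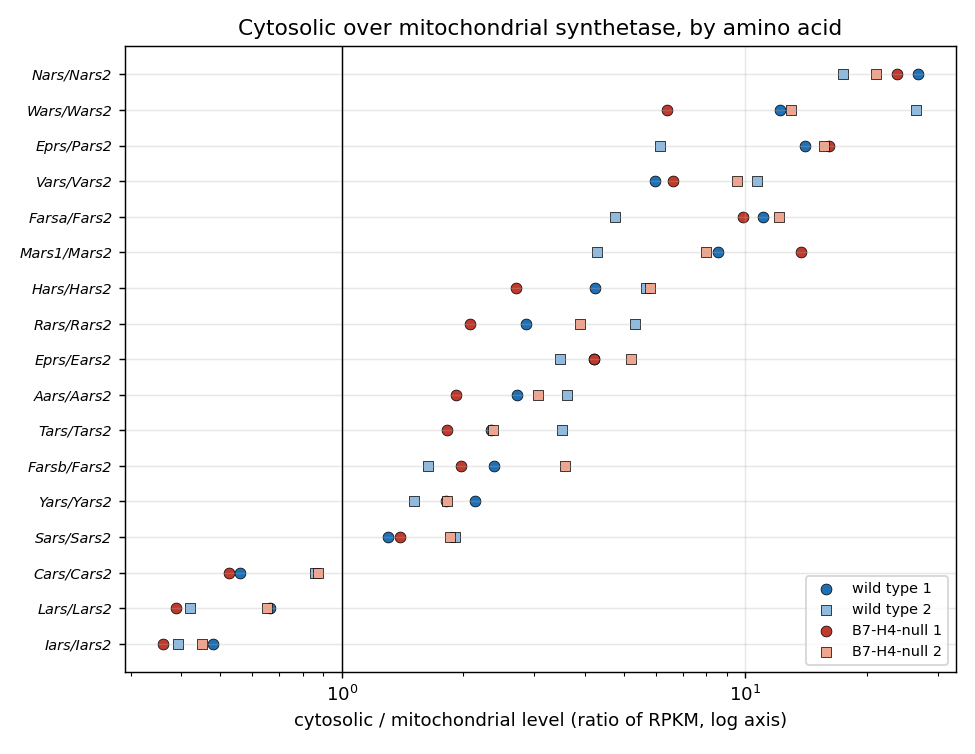
Ratio of the cytosolic to the mitochondrial level for each pair of synthetases with the same amino acid, on a log axis; each point is 1 library and the line marks a ratio of 1. Of the 17 pairs drawn only Cars/Cars2, Iars/Iars2 and Lars/Lars2 lie below 1, and the red points of the null libraries overlap the blue points of wild type in 16.

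Synthetases fall into structural classes by the fold of their catalytic domain. The 19 enzymes with a class I domain had a median difference of 0.29, with 18 above 0 and 8 higher without overlap. The 19 with a class II domain had a median of 0.17, with 15 above 0, 4 higher and 1 lower without overlap. Eprs carries both and is counted in each. Over all tested genes, 41.5% were above 0, and 16% were higher and 28% lower without overlap. The genes below 0 other than Mars2, namely Aars, Hars, Fars2 and Pars2, were all of class II. Of these, Hars and Fars2 changed sign when single libraries were left out, and a difference between the classes was not tested.

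Of the other genes that act on aminoacyl-tRNA, 0 passed the test, by limma. The editing factors, which clear mischarged tRNA or misplaced amino acids, differed among themselves. Aarsd1 had 43.2 and 32.3 RPKM in wild type against 44.7 and 54.0 RPKM in the null libraries and Dtd1 27.8 and 32.1 against 34.3 and 45.7 RPKM, while Prorsd1 had 9.82 and 10.97 against 5.79 and 7.17 RPKM (adjusted p = 0.608, 0.599 and 0.398, limma). Mitochondria have no glutaminyl-tRNA synthetase gene of their own and amidate glutamyl-tRNA with Gatb, Gatc and Qrsl1. Gatb had a difference of 0.56, above both wild-type libraries, but Gatc and Qrsl1 had −0.39 and −0.33. Mtfmt, which formylates the starting methionyl-tRNA of mitochondria, had −0.21, so the list had 1 of 4 above 0.

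The 14 genes of tRNA maturation and export had a median of 0.18, with 8 above 0 and 3 higher and 1 lower without overlap. The same shares over all tested genes were 41.5%, 16% and 28%. Pop1, of RNase P, had 5.32 and 2.31 against 6.13 and 7.14 RPKM (adjusted p = 0.471, limma). The elongation factors of the cytosol, which carry charged tRNA to the ribosome and move it along, had 5 of 5 above 0 with a median of 0.47. Eef1a1 had 1718 and 2261 RPKM in wild type against 2556 and 3032 RPKM in the null libraries, a difference of 0.50 (adjusted p = 0.568, limma). For these 5 genes wild type replicate 1 was the lowest library in 4, unlike the synthetases.

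The 9 mitochondrial translation factors had a median of 0.09 and 6 above 0. Mrrf, which recycles mitochondrial ribosomes, had 2.41 and 2.28 against 3.68 and 5.71 RPKM (adjusted p = 0.373, limma). Tufm, which delivers charged tRNA to the mitochondrial ribosome, had 6.44 and 5.27 against 8.01 and 7.65 RPKM. The 4 genes of selenocysteine incorporation all overlapped, with a median of 0.17. Tarsl2, a cytosolic relative of Tars that falls outside the naming rule, had 10.2 and 3.97 against 6.45 and 7.09 RPKM.

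Atf4 encodes ATF4, which is known to act through the element whose core was searched for above, though its binding was not measured. Its level was 330 and 207 RPKM in wild type against 702 and 406 RPKM in the null libraries, a log2 difference of 1.03 that did not pass (adjusted p = 0.362, limma). Both null libraries lay above both wild-type libraries. Of 12 tested genes of the ATF4 and amino acid response, 0 passed, 10 were above 0 and 6 were higher without overlap, with a median of 0.74. Of all tested genes, 41.5% were above 0 and 16% were higher without overlap. The list included Phgdh and Psat1 of serine synthesis, with 3.32 and 3.17 against 11.01 and 19.5 RPKM and with 45.2 and 36.5 against 66.5 and 90.7 RPKM (adjusted p = 0.137 and 0.319). Asns, the asparagine synthetase that is a much used readout of ATF4, overlapped at 19.7 and 17.1 against 13.5 and 23.5 RPKM.

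The levels of the 5 synthetase genes with the TGATGNAA letters, out of the 27 with a window, are given beside that of Atf4. A relation between them was not tested. B7-H4-null replicate 1, where Atf4 stood at 2.62 times its wild-type mean, had Aars at 0.727, Gars at 0.893, Tars at 0.974, Yars at 0.998 and Iars at 1.08 times theirs. B7-H4-null replicate 2, where Atf4 stood at 1.52 times, had Aars at 0.862, Tars at 1.16, Iars at 1.40, Gars at 1.44 and Yars at 1.49 times. B7-H4-null replicate 2 was the highest library for Gars, Iars, Tars and Yars, as it was for 16 of all 20 cytosolic genes. Their log2 differences were 0.18, 0.29, 0.09 and 0.29, with adjusted p = 0.841, 0.706, 0.907 and 0.734 (limma), and all 4 overlapped.

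**Figure D4:**
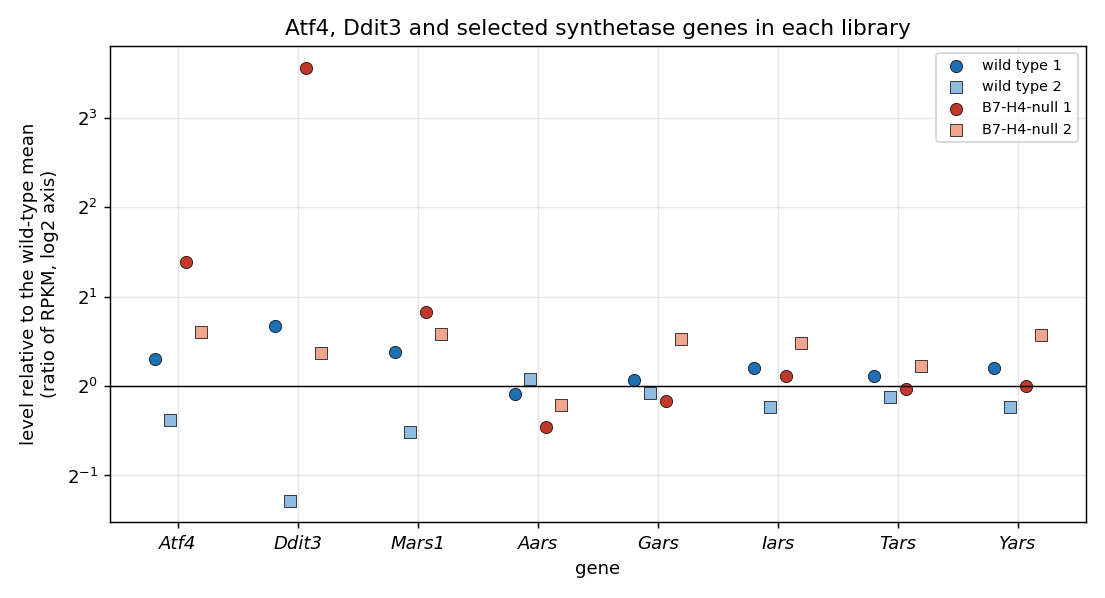
Level of Atf4, Ddit3, Mars1 and 5 synthetase genes, each divided by its own wild-type mean, on a log2 axis. Each point is 1 library. The 5 synthetase genes had TGATGNAA in their promoter window, and 10 of the 37 had no window to search. B7-H4-null replicate 1 (dark red circles) reaches 2.62 for Atf4 and 11.8 for Ddit3 and lies between 0.727 and 1.08 for Aars, Gars, Iars, Tars and Yars.

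Amino acid transporters, 7 tested, had a median of 0.36 with 5 above 0, and 0 passed. Slc3a2, the heavy chain that carries several transporters to the membrane, had 48.0 and 39.1 RPKM in wild type against 67.9 and 81.0 RPKM in the null libraries (adjusted p = 0.334, limma). Its partner Slc7a5, an importer of leucine, had 32.2 and 31.1 against 25.2 and 65.8 RPKM.

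Lists of other marker genes also differed in level between the genotypes in the same libraries, though 0 of their tested genes passed, by limma. The 3 sort markers summed to 307 to 351 RPKM in wild type and 215 to 217 RPKM in B7-H4-null. Itgb2, a subunit of Mac-1, had 213 and 213 against 123 and 146 RPKM, and Itgam, the other subunit, 114 and 86.9 against 82.9 and 59.9 RPKM, both lower without overlap (adjusted p = 0.371 and 0.556, limma). Kit overlapped, with 24.0 and 7.19 against 11.02 and 9.37 RPKM. The 9 neutrophil markers were lower in both null libraries (smallest adjusted p = 0.13, limma), where 28% of all tested genes were lower without overlap. Their summed levels were 5626 to 10748 RPKM in wild type and 3555 to 3658 RPKM in B7-H4-null, and none was at 0. The 10 genes of handling and early response were higher in both null libraries (smallest adjusted p = 0.147, limma), against 16% of all tested genes. They summed to 2269 to 3468 RPKM in wild type and 5542 to 11904 RPKM in B7-H4-null. The macrophage markers summed to 47.6 to 121 RPKM in wild type and to 17.4 to 43.3 RPKM in B7-H4-null. Among them, C1qa, C1qb and Mrc1 stayed under 1 RPKM throughout. The lower sum rested mainly on Vcam1, with 93.04 and 30.01 RPKM in wild type against 12.6 and 1.12 RPKM in the null libraries. Adgre1 was not lower and overlapped, with 25.3 and 15.98 against 29.8 and 15.1 RPKM, a log2 difference of 0.08. Of 6 B cell markers only Cd79b reached 1 RPKM, and the list summed to 36.3 to 46.2 RPKM in wild type and 58.9 to 61.5 RPKM in B7-H4-null. The stroma and endothelium markers summed to 27.02 to 29.6 and to 39.1 to 58.005 RPKM. Their higher sum rested mainly on Pecam1, with 16.4 and 17.7 RPKM in wild type against 37.1 and 31.0 RPKM in the null libraries. Pdgfrb overlapped, with 8.29 and 10.6 against 19.8 and 6.82 RPKM, and so did Col1a1. Col3a1, Cxcl12 and Cdh5 stayed under 1 RPKM throughout. The megakaryocyte markers summed to at most 17.1 RPKM and the erythroid markers to at most 3.95 RPKM. The part of maturation stage, of the sort or of handling in the synthetase differences was not tested.

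Reads of 14 of the 37 synthetase genes can be shared with another gene whose exons overlap theirs in the GENCODE annotation of GRCm38. For Cars2, the overlap with Naxd covered 422 bases, and Naxd had 29.6 and 26.8 RPKM in wild type against 28.2 and 35.7 RPKM in the null libraries. For Yars, the overlap with C77080 covered 30 bases, and that gene stayed under 1 RPKM in every library.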

How the data were processed

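The members and gene lists were chosen with earlier results of these data known. RNA came from 2 wild-type and 2 B7-H4-null libraries, prepared with Illumina's TruSeq RNA version 2 kit and read on a HiSeq2500, per the labels' protocols. The submitters' processing notes name TopHat2 2.0.12 and the build GRCm38. For the counting program, annotation and strand setting, nothing is given in the sources used here. The authors deposited 1 table of RPKM values for 27179 Entrez gene IDs; the unit was read from the values. Symbols came from an NCBI table of GRCm38.p6 (25275 IDs) and from GENCODE (18), and 1886 IDs had none.

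Library totals were recovered from small RNA genes of known length, and reads as the smallest whole numbers, to within 0.001 read, that fit a model no shorter than the coding sequence. This gave reads for 14607 of 14608 genes above 0 in all libraries. The 95% intervals come from limma and reflect the spread between libraries.

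The test covered the 12107 genes that reached 1 RPKM in at least 2 libraries. It was limma 3.58.1 (R 4.3.3) on log2(RPKM + 1) with a genotype term, eBayes with trend, two-sided, and p-values were adjusted by Benjamini-Hochberg with a threshold of 0.05. This scale understates changes of genes at low levels. Genes named are all synthetase genes, and of other lists up to 4 members with the smallest p, or any member of lists of at most 8; 1 synthetase gene and 1 gene of another list are counted but not reported here by name. Alternatives were the pseudocount, filters, scalings, a replicate block, voom and leaving out each library.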

Additional observations from a re-analysis of the deposited data

How the results depend on the processing

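With 2 libraries per genotype, no synthetase gene passed under any of the 11 alternatives run, where the filter at 5 RPKM left 33 of the 37 to test, and the depth limits Wars2 most. Leaving out 1 library moved the median difference of the cytosolic genes between 0.065 and 0.46, that of the mitochondrial genes between 0.14 and 0.44, and the cytosolic minus the mitochondrial median between −0.17 and 0.24. Under the other settings these stayed within the spread between replicates. The replicate numbers are shared by the genotypes, but with 2 pairs the labels do not show that they pair the samples; the deviations of same-numbered libraries correlated at 0.247 across genes. With the replicate block 0 synthetase genes and 21 of all genes were called, against 12 without it.

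Mars2 changed sign after median-ratio scaling (0.077) and quantile normalization (0.086). When single libraries were left out, 17 genes changed sign at least once; the cause was not tested. The ranges were −0.17 to 0.23 for Aars2, −0.20 to 0.75 for Cars2, −0.049 to 0.30 for Dars, −0.18 to 0.43 for Ears2, −0.049 to 0.89 for Eprs, −0.59 to 0.23 for Fars2, −0.14 to 0.61 for Farsb, −0.16 to 0.52 for Gars and −0.68 to 0.23 for Hars. They were −0.075 to 0.21 for Hars2, −0.060 to 0.49 for Kars, −0.22 to 0.21 for Mars2, −0.12 to 0.57 for Rars, −0.17 to 0.44 for Sars2, −0.031 to 0.22 for Tars, −0.23 to 0.74 for Vars2 and −0.35 to 0.38 for Wars.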
